A study of Mus musculus with 31 samples.

Results

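The livers of male mice of the HFLF arm (n = 6) were set against those of the LF arm (n = 4), 10 of the 15 liver libraries and of the 31 libraries in the series. Members were chosen by title, as every liver library numbered in the HFLF or LF arm. All animals were wild type (WT), F1 generation, of the C57BL/6 strain and 24 weeks old. Each had been fed chow up to 6 weeks of age and the LFD diet for the next 18 weeks, so the diet eaten by the animals themselves was the same in both arms. The labels tag the arms HFLFD and LFD. The title of the series speaks of paternal inheritance, and the tag was therefore read as the diet history of the fathers' line, although no label says so. Neither fathers nor litters are given, so the p-values measure the spread between these animals only.

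The liver takes up dietary and stored fat, burns it in mitochondria and peroxisomes when carbohydrate is short, and packs the rest into lipoproteins. The nuclear receptor PPAR-alpha switches on the burning genes. Hepatocytes near the central vein hold most of the cytochromes P450, which oxidise drugs and lipids, while those near the portal vein make glucose and urea. The pulses of growth hormone in males keep a group of liver genes, among them major urinary proteins, higher than in females.

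The counts of the 13677 genes in the liver table summed to 9869792 to 13900694 per library in HFLF and 9225373 to 15730461 in LF, where LF 2 was the shallowest. The totals were 11371729 ± 1605695 in HFLF and 13898741 ± 3122227 in LF (SD, exact two-sided permutation p = 0.124). Genes of mitochondrial DNA gave 3.40 ± 0.41% of counts in HFLF and 3.36 ± 0.22% in LF (exact permutation p = 0.743). All 14 hepatocyte markers were measured, and their summed level was 116260 to 142820 CPM, a library's count of a gene scaled to a fixed library size, in HFLF and 115830 to 126060 CPM in LF. Their median log2 fold change was 0.01, and 7 of 14 were higher in HFLF. CPM values below are scaled by trimmed means of M values (TMM), LF values are given in the order of libraries LF 1, 2, 3 and 6, and fold changes are HFLF minus LF on the log2 scale, ± SE. A count of 3 in a library, taken as the floor of detection, corresponds to 0.191 to 0.325 CPM, for counting error only.

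No single gene separated the arms in the edgeR test over all genes, which called 0 of 13677 (0.0%) at an adjusted p under 0.05. The smallest adjusted p was 0.443. At an unadjusted p under 0.05 there were 748 genes (5.47%), 386 higher in HFLF (2.82%) and 362 lower (2.65%). With no change in any gene, 684 would reach that threshold. Fold changes ran from -0.39 to 0.40 between the 5th and the 95th percentile. In 58 genes (0.424%) every HFLF library lay above every LF library, and in 71 (0.519%) every one lay below. The number of such genes expected with no change in any gene was not worked out. Absence of overlap alone, here and below, therefore does not show a difference between the arms. DESeq2 called 11 genes on the same counts, and limma voom called 0. The DESeq2 calls were Nrp2, Cyp2c54, Cyp2c50, Lpgat1, A1cf, Abat and Acsm3 (higher) and Arpc1b, Reep5, Gstp-ps and Foxp4 (lower). With library totals in place of TMM the median of all genes moved to -0.02, and 34.9% of the genes at an unadjusted p under 0.05 were higher, against 51.6% with TMM.

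**Figure D1:**
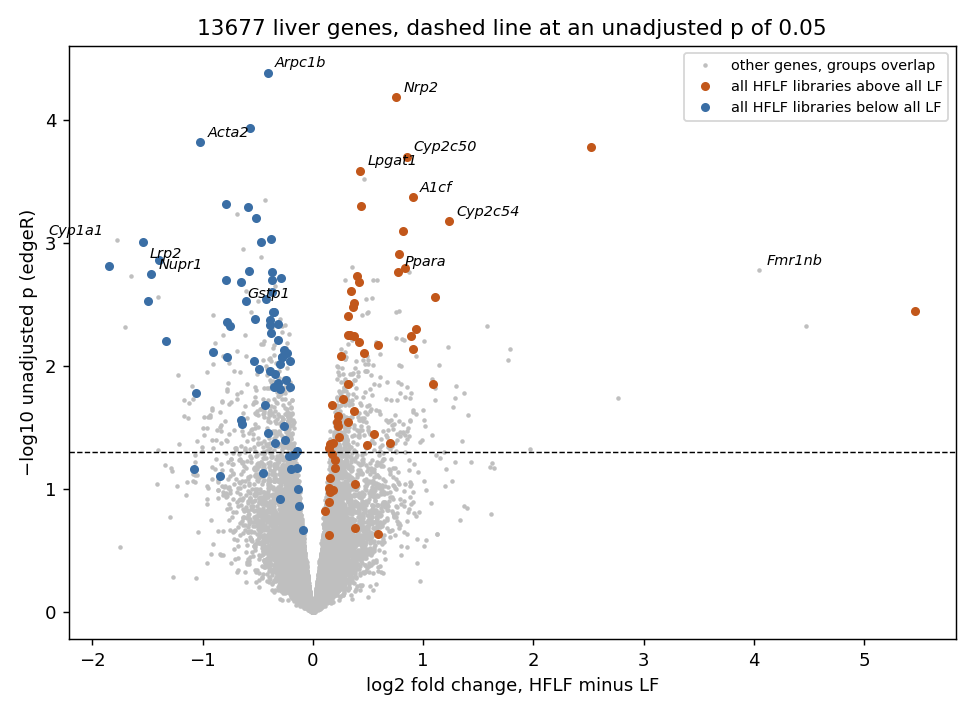
Fold change of every liver gene (x axis, log2, HFLF minus LF) against −log10 of the unadjusted edgeR p (y axis). Orange points are the 58 genes in which all HFLF libraries lay above all LF libraries, blue points the 71 in which all lay below, and grey points the rest, and the dashed line marks an unadjusted p of 0.05.

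The genes with the smallest p on the higher side included a receptor of guidance cues, enzymes of lipid and amino acid metabolism and a pair of cytochromes P450. Nrp2, neuropilin 2, a co-receptor for semaphorins and VEGF-C (chromosome 1, 62703285 to 62818695), had 15.4, 20.9 and 22.8 CPM (lowest, median and highest) in HFLF, against 8.62, 11.7, 12.1 and 14.7 CPM in LF. Its groups did not overlap, and the fold change was 0.76 ± 0.14 (edgeR adjusted p = 0.443, DESeq2 adjusted p = 0.00503). A1cf, the RNA-binding partner of the enzyme that edits apolipoprotein B mRNA (chromosome 19, 31868764 to 31948995), had 45.2, 52.5 and 73.2 CPM in HFLF and 30.2, 28.2, 25.7 and 32.3 CPM in LF. Again the groups did not overlap, with the fold change at 0.91 ± 0.20. Lpgat1, which acylates lysophospholipids, had 194, 226 and 268 CPM in HFLF and 171, 167, 169 and 184 CPM in LF (0.43 ± 0.09). All LF libraries of Lpgat1 lay below all HFLF libraries. Abat, which breaks down the transmitter GABA, had 286, 334 and 391 CPM in HFLF and 278, 243, 253 and 214 CPM in LF (0.44 ± 0.10), also without overlap. Acsm3, a medium-chain acyl-CoA synthetase, had 77.5, 93.5 and 106 CPM in HFLF, and 56.0, 68.1, 65.8 and 78.6 CPM in LF (0.46 ± 0.10). Here LF 6 lay above the lowest HFLF library.

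Ppara, the gene of the fat-burning receptor itself (chromosome 15, 85734983 to 85802819), had 89.0, 105 and 166 CPM in HFLF and 83.5, 64.1, 62.0 and 61.6 CPM in LF. LF 1 came closest to the HFLF libraries, but the groups did not overlap (0.77 ± 0.20, edgeR adjusted p = 0.639). The other genes among the 15 with the smallest p on this side were Cyp2c50, Cyp2c54, the urinary protein gene Mup2, the transporter gene Mfsd4a, the antiviral helicase gene Znfx1, the pyruvate dehydrogenase phosphatase subunit Pdpr, the laminin gene Lamc3, Ylpm1 and Fmr1nb. Of the 15, 11 had groups that did not overlap, beside 0.424% of all genes on this side. The 15 were picked by p from the same libraries, which favours such genes. Fmr1nb, a gene known from testis, had 0.29, 1.61 and 4.97 CPM in HFLF and 0.398, 0, 0 and 0.063 CPM in LF, of which only LF 1 was above the floor. Mup2 belongs to a cluster of near-identical genes, so its low counts (3.63 to 5.62 CPM in HFLF, 2.39 to 2.84 CPM in LF) depend on how reads were split among copies.

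The genes with the smallest p on the lower side included parts of the actin cytoskeleton, a protein that shapes the endoplasmic reticulum and a glutathione transferase. Arpc1b, a subunit of the Arp2/3 complex that branches actin filaments (chromosome 5, 145114215 to 145130705), had 44.6, 52.3 and 56.4 CPM in HFLF and 69.7, 65.7, 69.6 and 71.3 CPM in LF. The gap between the highest HFLF and the lowest LF library exceeded the spread of the LF group but not that of the HFLF group (-0.41 ± 0.08, edgeR adjusted p = 0.443, DESeq2 adjusted p = 0.000881). Reep5, which bends the membrane of the endoplasmic reticulum into tubules, had 11.1, 13.4 and 16.7 CPM in HFLF, and 21.2, 18.7, 18.0 and 22.3 CPM in LF (-0.57 ± 0.12), with no overlap. Acta2, the actin of smooth muscle and of activated stellate cells, had 1.10, 1.25 and 1.75 CPM in HFLF and 2.52, 3.37, 2.50 and 2.41 CPM in LF (-1.02 ± 0.21). Every HFLF library was below every LF library in this rare transcript. In whole liver, fewer cells of a type and less RNA per cell cannot be told apart. Foxp4, a transcription factor, had 32.3, 36.7 and 43.8 CPM in HFLF and 53.6, 52.7, 51.6 and 43.1 CPM in LF (-0.44 ± 0.10), and LF 6 lay inside the HFLF range.

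Serpine2, an inhibitor of thrombin and other proteases outside cells, had 18.7, 25.2 and 29.7 CPM in HFLF and 44.2, 31.8, 32.7 and 40.8 CPM in LF (-0.59 ± 0.14), without overlap. Lrp2, the endocytic receptor megalin, had 0.291, 1.58 and 2.22 CPM in HFLF, against 6.70, 4.32, 2.56 and 3.74 CPM in LF (-1.54 ± 0.39), and its groups were likewise apart at low counts. Cyp1a1, the cytochrome P450 induced through the aryl hydrocarbon receptor, had 0.291, 0.369 and 0.706 CPM in HFLF, all close to the floor, and 2.19, 0.526, 1.44 and 1.46 CPM in LF (-1.78 ± 0.45). LF 2 lay within the HFLF range for this gene. Its constitutive relative Cyp1a2 differed by -0.18 ± 0.18, and by -0.07 without LF 1 or -0.31 without LF 2. Cpne2, a calcium-dependent membrane-binding protein, Cyb5r1, a cytochrome b5 reductase, the lipid kinase Pip5k1c, the telomere protein Tinf2, the endosomal GTPase Rab4a, the zinc transporter Slc30a3 and Gstp-ps were also among the 15. Rab4a (-0.47 ± 0.12) differed by -0.31 without LF 1. Of these 15 genes, likewise picked by p from the same libraries, 10 had groups that did not overlap, beside 0.519% of all genes on this side.

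**Figure D2:**
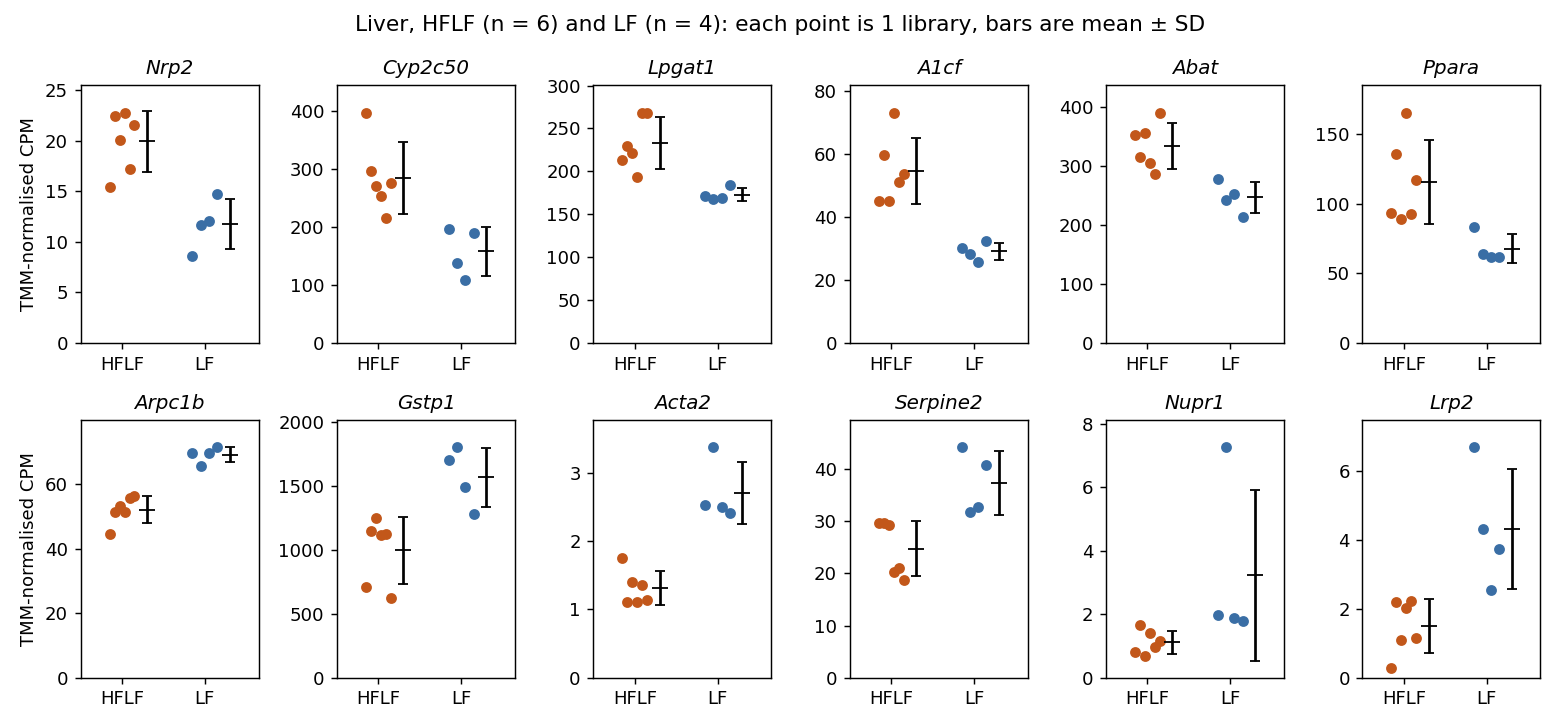
CPM of 12 liver genes in each library, HFLF (n = 6, orange) left of LF (n = 4, blue). Points are libraries and black bars are the mean ± SD. All 12 are among the genes without overlap between the arms (0.424% of all genes on the higher side and 0.519% on the lower). The absence of overlap in the panels therefore comes from their choice.

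Genes switched on by PPAR-alpha had higher means in HFLF throughout the list, while the libraries of both arms overlapped in all but 1 gene. All 34 measured members were higher (50.1% of all genes were, and 49.9% were lower), with a median of 0.32 against 0.00 over all genes. Of these, 7 of 34 (20.6%) were higher at an unadjusted p under 0.05, beside 2.82% of all genes. In 1 (Ppara) the groups did not overlap, beside 0.424% of all genes. This and the other lists were chosen with earlier results of these data known, so such shares are descriptions only. On leaving out 1 library the median ran from 0.22 (without LF 3) to 0.44 (without LF 2). The mean log2 CPM of the list was 6.85 to 8.12 in HFLF and 6.43, 7.63, 6.33 and 7.69 in LF. LF 1 and LF 3 were thus the lowest of the 10 libraries, whereas LF 2 and LF 6 lay inside the HFLF range. Of the 6 HFLF libraries, 4 (HFLF 1, 2, 3 and 6) lay inside the LF range, and HFLF 4 and 5 lay above it. Cyp4a10, which hydroxylates fatty acids at their omega end, showed this split, with 20.7, 254 and 498 CPM in HFLF and 4.91, 78.7, 9.12 and 277 CPM in LF. Its fold change was 1.62 ± 1.08, and 3.23 without LF 6. Its neighbour Cyp4a14 had 14.7, 113 and 993 CPM in HFLF and 0.862, 92.6, 2.68 and 482 CPM in LF (0.97 ± 1.61). That value turned to -0.03 without HFLF 5 and was 3.18 without LF 6. The fasting hormone Fgf21 had 26.4 CPM in HFLF 4 and 1.09 to 5.41 CPM in the other HFLF libraries, against 0.929, 11.3, 0.999 and 5.14 CPM in LF. Its fold change was 0.51, which ran from -0.92 without HFLF 4 to 1.39 without LF 2.

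Members with smaller errors included enzymes at the entry of the pathway. Cpt1a, which loads fatty acids onto carnitine for the mitochondrion, had 518, 717 and 922 CPM in HFLF and 528, 632, 589 and 580 CPM in LF (0.29 ± 0.12). The groups overlapped. Acsl1, which activates long-chain fatty acids, differed by 0.62 ± 0.27, the fatty acid transporter Slc27a2 by 0.30 ± 0.11 and the peroxisomal thiolase Acaa1a by 0.28 ± 0.10. Mitochondrial fatty acid oxidation genes, 11 of which are also PPAR-alpha members, were higher in 24 of 24 (median 0.23, from 0.15 without LF 3 to 0.31 without LF 6), with 3 (12.5%) higher at an unadjusted p under 0.05, beside 2.82% of all genes. Hadha, of the trifunctional enzyme, differed by 0.24 ± 0.14 (0.15 without LF 3) and the dehydrogenase Acadm by 0.26 ± 0.17 (0.15 without HFLF 5 or LF 3 and 0.16 without LF 1). All 6 ketone body genes were higher as well (median 0.19, from 0.06 without HFLF 4 to 0.28 without HFLF 6). The mitochondrial thiolase Acat1 differed by 0.36 ± 0.13.

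**Figure D3:**
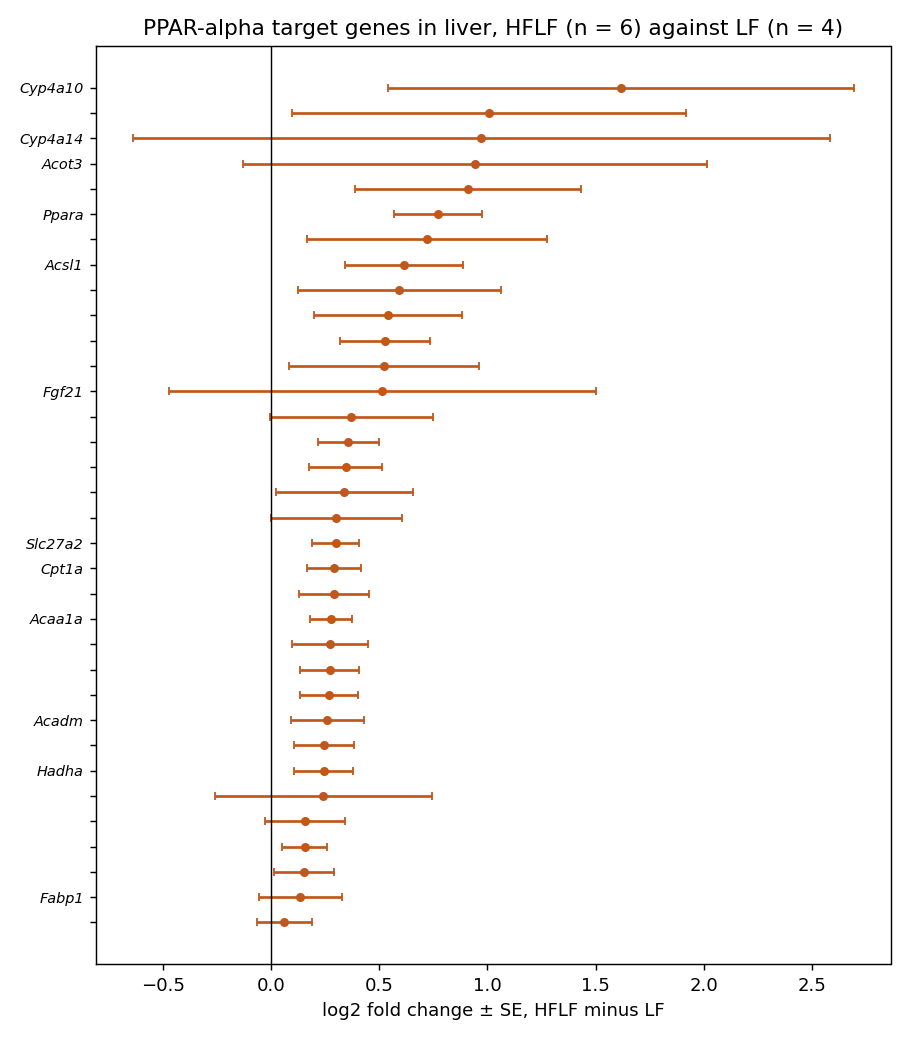
Log2 fold changes ± SE (x axis, HFLF minus LF) of the 34 measured PPAR-alpha target genes, sorted by size, with names for the genes described in the text. All 34 points lie right of 0, and the widest errors belong to Cyp4a14, Cyp4a10 and Acot3.

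PPAR-alpha binds, with its partner RXR, a pair of AGGTCA hexamers in the same direction with 1 base of any kind between them. Both strands were read in 32851 promoter windows of RefSeq (GRCm38.p6, 250 bases before to 50 after the start). The exact pair was found in 13 windows (0.0396%) and in 0 of the 31 windows of the 28 list members that matched. A looser form, which takes any base at the fourth place of the first hexamer and so includes the exact pair, was found in 31 windows (0.0944%) and in 1 of the members' 31 (3.23%). That window belongs to Fabp1, the cytosolic carrier of fatty acids in hepatocytes, at chr6:71199629-71199928 on the plus strand. A match is a description of letters only. The window is shown because it is the single match among the members, and the capitals mark it, on the minus strand at bases 184 to 196.
Fabp1: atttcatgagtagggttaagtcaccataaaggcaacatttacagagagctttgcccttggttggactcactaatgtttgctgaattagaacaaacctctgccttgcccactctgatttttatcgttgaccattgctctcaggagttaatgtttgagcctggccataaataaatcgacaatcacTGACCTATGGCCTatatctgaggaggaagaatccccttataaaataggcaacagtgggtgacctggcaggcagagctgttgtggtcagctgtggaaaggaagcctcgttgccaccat
Fabp1 itself had 2127, 3267 and 4502 CPM in HFLF and 2767, 4170, 2063 and 2832 CPM in LF, with the groups overlapping throughout (0.14 ± 0.19, which ran from -0.0031 without LF 3 to 0.35 without LF 2).

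Mitochondrial genes downstream of fat breakdown differed by small amounts. Genes of the TCA cycle and of pyruvate entry were higher in 26 of 30 (median 0.11, and 0.07 to 0.15 without any 1 library), 4 of them (13.3%) at an unadjusted p under 0.05, beside 2.82% of all genes. The dehydrogenase subunits Pdha1 and Sdha differed by 0.22 ± 0.10 and 0.19 ± 0.08. Both overlapped between the arms. Of 24 genes that break down branched-chain amino acids, 22 were higher (median 0.14, and 0.10 to 0.17 without any 1 library), with Aldh6a1 (0.28 ± 0.10), Ivd (0.26 ± 0.11) and Mut (0.24 ± 0.11) among its 4 members (16.7%) higher at an unadjusted p under 0.05. Of 32 genes for mitochondrial dynamics and biogenesis, 22 were higher (median 0.07). Mfn2, which fuses outer membranes, had 141, 171 and 189 CPM in HFLF and 128, 145, 136 and 143 CPM in LF (0.29 ± 0.10). LF 2 and the LF library with 143 CPM lay in the HFLF range.

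The respiratory chain showed no common direction. Complex I genes of the nucleus were higher in 22 of 37 (median 0.01, and -0.05 without LF 6 or 0.06 without LF 1), and those of complexes II to V in 27 of 41 (median 0.05, from 0.01 without LF 6 to 0.09 without LF 1). Ndufa7, an accessory subunit of complex I, had 70.0, 75.2 and 76.1 CPM in HFLF, and 66.9, 66.6, 66.9 and 67.4 CPM in LF, which did not overlap at a fold change of 0.15 ± 0.07. Ndufs1, the largest subunit of complex I, differed by 0.22 ± 0.08, while the small Ndufa1 differed by -0.22 ± 0.10. Of the 8 measured protein genes of mitochondrial DNA, 5 were higher (median 0.10, from 0.06 without HFLF 6 to 0.15 without HFLF 4), with mt-Cytb at 0.12 ± 0.10 (0.07 without HFLF 6) and mt-Nd2 at -0.15 ± 0.14 (-0.06 without HFLF 4). Mitochondrial ribosome genes were higher in 28 of 76 (median -0.04, from -0.07 without LF 6 to -0.02 without LF 1).

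Of 38 measured cytochromes P450 of families 1 to 3, 26 were higher and 12 lower (median 0.15, from 0.09 without LF 3 to 0.21 without LF 6). At an unadjusted p under 0.05 there were 6 higher (15.8%), beside 2.82% of all genes, and 1 lower (Cyp1a1, described above). The Cyp2c genes, which oxidise drugs and arachidonic acid, were higher in 11 of 12 (median 0.44), 2 of them with groups that did not overlap, which 0.424% of all genes showed on this side. Cyp2c50 (chromosome 19, 40089688 to 40113950) had 214, 273 and 397 CPM in HFLF, and 196, 137, 108 and 189 CPM in LF (0.85 ± 0.18). Cyp2c54 (chromosome 19, 40037940 to 40073827) had 83.7, 110 and 184 CPM in HFLF, and 57.6, 36.4, 36.7 and 74.6 CPM in LF (1.24 ± 0.28). Both were apart in all libraries, and LF 2 and LF 3 were low in both. Their near copy Cyp2c37 had 65.5, 93.5 and 178 CPM in HFLF, and 58.2, 52.2, 38.8 and 105 CPM in LF (0.82 ± 0.35), where LF 6 lay inside the HFLF range. Cyp2c29 (0.50 ± 0.37), Cyp2c38 (0.86 ± 0.57) and Cyp2c68 (0.38 ± 0.23) overlapped between the arms. Without 1 library Cyp2c29 ran from 0.22 (without LF 3) to 0.76 (without LF 6) and Cyp2c38 from 0.49 to 1.55 on leaving out the same libraries, and Cyp2c68 was 0.17 without LF 3. Cyp2c70, of bile acid hydroxylation in mice, differed by -0.31 ± 0.47 and ran from -0.58 (without HFLF 2) to 0.42 (without LF 1). Reads of these paralogs could be split among copies, which makes their single values uncertain.

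Conjugating enzymes, which attach sugars, sulphate or glutathione, were higher in 26 of 42 (median 0.09, from 0.06 without HFLF 1 to 0.16 without HFLF 4), with 5 higher (11.9%) and 2 lower (4.76%) at an unadjusted p under 0.05, beside 2.82% and 2.65% of all genes. Ugt1a1, which conjugates bilirubin, had 78.6, 96.6 and 119 CPM in HFLF and 53.3, 64.3, 56.1 and 90.1 CPM in LF (0.54 ± 0.15). Only LF 6 reached the HFLF range. The glutathione transferases Gstt1 (0.45 ± 0.15) and Gstk1 (0.22 ± 0.08) also had higher levels. The pi class had lower means. Gstp1, the chief pi transferase of male mouse liver (chromosome 19, 4035407 to 4037985), had 622, 1121 and 1249 CPM in HFLF, and 1703, 1802, 1488 and 1282 CPM in LF. The highest HFLF library lay just under the lowest LF library, so the groups did not overlap (-0.66 ± 0.18, edgeR adjusted p = 0.639). Gstp-ps, annotated as a pseudogene and possibly sharing reads with Gstp1, had 6.59, 12.1 and 13.8 CPM in HFLF and 20.3, 21.4, 20.0 and 14.02 CPM in LF (-0.79 ± 0.18, DESeq2 adjusted p = 0.0493), also without overlap. Gstp2 differed by -0.79 ± 0.33 at 0.51 to 2.41 CPM in HFLF and 1.75 to 2.92 CPM in LF, and Gstp3 by -0.09 ± 0.24 (0.043 without LF 3 and -0.33 without LF 6).

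Markers of hepatocytes near the central vein mostly had higher means in HFLF, and those of the portal side mostly lower ones. Of 15 pericentral markers 13 were higher (median 0.26, and 0.21 to 0.36 without any 1 library), 3 of the 15 at an unadjusted p under 0.05, beside 2.82% of all genes. The pericentral list shares 3 members with that of cytochromes P450 described above, so the 2 lists are not separate observations. Cyp2e1, which oxidises ethanol, had 5927, 7489 and 8482 CPM in HFLF, and 4650, 4853, 5540 and 7275 CPM in LF (0.39 ± 0.13). Oat, ornithine aminotransferase, had 462, 654 and 818 CPM in HFLF and 408, 533, 384 and 542 CPM in LF (0.47 ± 0.17), and Slc1a2, a glutamate transporter, differed by 0.36 ± 0.13. LF 6 was the highest LF library in all 3 and the groups overlapped. Glul, glutamine synthetase of the innermost layer, differed by 0.12 ± 0.11 (0.05 without LF 2). Of 13 periportal markers 2 were higher (median -0.07, from -0.13 without LF 2 to 0.01 without LF 3), with Arg1, the last enzyme of the urea cycle, at -0.15 ± 0.15 (-0.06 without HFLF 4). Summed levels were 10268 to 13852 CPM in HFLF and 8520 to 11846 CPM in LF for pericentral markers, and 11477 to 16269 CPM in HFLF and 11116 to 17850 CPM in LF for periportal markers, so both sums overlapped between the arms.

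Genes that differ between male and female liver varied among the animals of each arm. The SD of the mean log2 CPM was 0.68 in HFLF and 0.84 in LF for female-biased genes, and 0.54 and 0.22 for male-biased genes. Female-biased genes were higher in 13 of 17 (median 0.79), 4 of them (23.5%) at an unadjusted p under 0.05, beside 2.82% of all genes. Only 17 of the 30 listed genes were in the table, and 3 (Cyp4a10, Cyp4a14 and Acot3) are also PPAR-alpha members. The median was 0.33 without HFLF 5, 0.44 without HFLF 1, 0.50 without HFLF 6 and 1.40 without LF 6. The mean log2 CPM of the list was 4.36, 4.39 and 4.07 in HFLF 1, 5 and 6 and 2.78 to 3.30 in the other HFLF libraries, against 1.66, 2.64, 2.44 and 3.69 in LF. Hamp2, a hepcidin of female-biased level, had 7.33, 33.5 and 92.4 CPM in HFLF and 13.2, 6.32, 19.2 and 3.93 CPM in LF (1.97 ± 0.89).

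The list of male-biased genes shares 4 members with that of conjugating enzymes described above. Male-biased genes were lower in 21 of 29 (median -0.22, from -0.35 without HFLF 2 to -0.05 without LF 1), 4 of them (13.8%) at an unadjusted p under 0.05, beside 2.65% of all genes. Their list mean was 7.28, 7.01 and 7.49 in HFLF 1, 5 and 6, 8.09 to 8.29 in the other HFLF libraries, and 8.32, 7.93, 8.07 and 7.81 in LF. The same 3 HFLF animals thus had the highest female-biased and the lowest male-biased means of the 10 libraries. Mup20, the urinary pheromone darcin, had 1966, 3594 and 4958 CPM in HFLF and 6312, 6378, 6205 and 4206 CPM in LF (-0.69 ± 0.23), and Mup21 differed by -0.54 ± 0.21. Both belong to the cluster of near-identical urinary protein genes, whose summed share was 1.49 ± 0.31% of counts in HFLF and 1.88 ± 0.22% in LF (SD, n = 6 and 4, exact permutation p = 0.0762). Going against its list, Ces2a, a carboxylesterase, was higher (0.49 ± 0.17). No gene of the growth hormone axis reached an unadjusted p under 0.05. Igf1, the main secreted product of the axis, had 451, 568 and 614 CPM in HFLF and 544, 376, 543 and 561 CPM in LF (0.14 ± 0.13, and 0.02 without LF 2). Ghr, the receptor, differed by 0.13 ± 0.10 and Stat5b, its transcription factor, by 0.13 ± 0.11 (0.04 without HFLF 4).

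**Figure D4:**
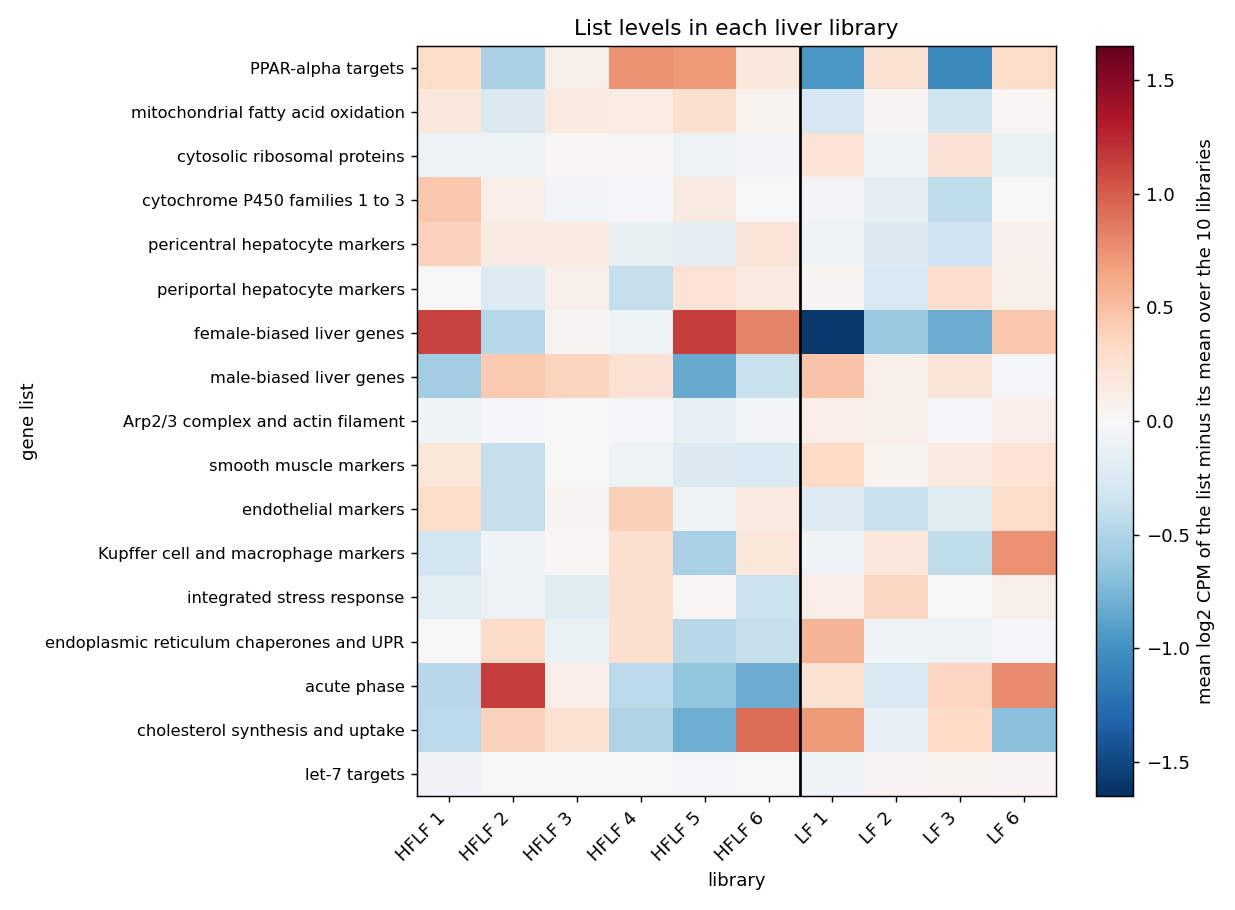
Mean log2 CPM of 17 gene lists in each of the 10 libraries, HFLF left of the black line and LF right of it, coloured by the difference from the list's mean over these libraries (red higher, blue lower). LF 1 and LF 3 are low for PPAR-alpha targets and high for ribosomal proteins, and HFLF 1, 5 and 6 are high for female-biased and low for male-biased genes.

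Of 82 cytosolic ribosomal protein genes 80 were lower (median -0.12), 4 of them (4.88%) at an unadjusted p under 0.05, beside 2.65% of all genes, and none had groups without overlap. Leaving out LF 1 made the median -0.07, leaving out LF 3 made it -0.05 and leaving out LF 2 made it -0.16. The list mean was 6.39 to 6.52 in HFLF and 6.73, 6.41, 6.74 and 6.39 in LF, so that LF 2 and LF 6 lay in the HFLF range. Genes of translation initiation and elongation had a median of -0.02 (11 of 31 higher, from -0.05 without LF 2 to 0.0036 without LF 1), with Eif4ebp1, which holds back cap-dependent initiation, at -0.24 ± 0.08 and the initiation factor Eif4b at 0.22 ± 0.09.

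Among genes of the integrated stress response, which ATF4 directs when amino acids or protein folding fail, 15 of 22 were lower (median -0.16, from -0.24 without HFLF 4 to -0.07 without HFLF 6). Of the 22, 5 (22.7%) were lower at an unadjusted p under 0.05, beside 2.65% of all genes. Nupr1, a stress-induced chromatin protein, had 0.696, 1.05 and 1.66 CPM in HFLF and 1.99, 7.26, 1.87 and 1.78 CPM in LF, which did not overlap (-1.47 ± 0.40, and -0.75 without LF 2). Psph, of serine synthesis, had 2.90, 4.49 and 5.99 CPM in HFLF and 9.35, 6.21, 6.12 and 4.88 CPM in LF (-0.61 ± 0.20, and -0.40 without LF 1). Mthfd2, of the mitochondrial folate cycle, differed by -0.69 ± 0.27. Endoplasmic reticulum chaperones had a median of -0.15 that became -0.25 without LF 6 and 0.04 without LF 1, whose list mean of 7.67 stood apart from the 7.01 to 7.07 of the other LF libraries. Dnajb11, a co-chaperone, had 63.9 to 138 CPM in HFLF, against 179 CPM in LF 1 and 94.9 to 103 CPM in the rest of LF (-0.35, and -0.09 without LF 1).

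Genes of the actin cytoskeleton mostly had lower means in HFLF. Of 27 measured genes of the Arp2/3 complex and the actin filament 21 were lower (median -0.11, and -0.13 to -0.08 without any 1 library), 8 of them (29.6%) at an unadjusted p under 0.05, beside 2.65% of all genes. In 3 genes of the list (Arpc1b, Arpc3 and Pfn1) the groups did not overlap, beside 0.519% of all genes. The list was chosen with earlier results of these data known, so its shares are descriptions only. The list mean was 5.30 to 5.43 in HFLF and 5.54, 5.52, 5.40 and 5.54 in LF, where LF 3 lay in the HFLF range. Among the 9 measured Arp2/3 subunits 8 were lower (median -0.13). Arpc2 had 89.2, 107 and 114 CPM in HFLF and 139, 127, 120 and 113 CPM in LF (-0.24 ± 0.08), with LF 6 inside the HFLF range. Arpc3 had 42.9, 44.0 and 46.9 CPM in HFLF, against 49.95, 48.3, 49.0 and 47.6 CPM in LF (-0.13 ± 0.08). Arpc4 differed by -0.18 ± 0.07 (-0.12 without LF 1), whereas Arpc1a, the relative of Arpc1b, differed by -0.06 ± 0.09 and Arpc5 by 0.02 ± 0.07. Pfn1, profilin, which feeds actin monomers to growing filaments, had 216, 248 and 252 CPM in HFLF and 346, 279, 270 and 256 CPM in LF (-0.25 ± 0.09, and -0.15 without LF 1). Actb, cytoplasmic actin, had 444, 546 and 757 CPM in HFLF and 1324, 779, 589 and 618 CPM in LF. Its fold change of -0.54 ± 0.21 was -0.22 without LF 1.

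Markers of cells other than hepatocytes were examined beside these genes. Of 10 smooth muscle markers 6 were measured, 2 of them higher and 4 lower, with fold changes from -1.02 to 0.54. Their median was -0.45 (from -0.57 without LF 2 to -0.23 without LF 1), and their summed level was 14.5 to 22.1 CPM in HFLF and 18.2 to 21.9 CPM in LF. Myh11, the myosin of smooth muscle, had 0.868, 1.60 and 2.59 CPM in HFLF and 2.59, 2.11, 2.68 and 4.38 CPM in LF (-0.78 ± 0.29), and Tagln, transgelin, differed by -0.59 ± 0.32 (-0.21 without LF 1). Stellate cell and fibroblast markers were lower in 10 of 16 (median -0.16, from -0.22 without HFLF 3 to -0.07 without LF 6, summed level 408 to 658 CPM in HFLF and 530 to 652 CPM in LF), and Col1a1, of fibrillar collagen, differed by -0.60 ± 0.39 (-0.39 without HFLF 1). Their part in the actin values was not tested. Endothelial markers were higher in 17 of 18 (median 0.21, and 0.12 without LF 2 or 0.37 without LF 6), none at an unadjusted p under 0.05, with Stab1, of sinusoidal endothelium, at 0.28 ± 0.14. Macrophage markers were lower in 18 of 19 (median -0.17), but the median ran from -0.35 without LF 3 to 0.18 without LF 6, whose summed level of 767 CPM was the highest of the 10 libraries. Spp1, osteopontin, had 21.5 to 93.7 CPM in HFLF, against 349 CPM in LF 1 and 31.5 to 62.9 CPM in the other LF libraries (-1.28, and 0.21 without LF 1). T and NK cell, B cell and neutrophil markers were sparse, with 4 of 20, 8 of 12 and 2 of 11 measured and summed levels of 9.89 to 20.5 CPM, 11.2 to 29.9 CPM and 1.55 to 4.89 CPM in HFLF, and 13.7 to 25.1 CPM, 14.5 to 41.3 CPM and 2.06 to 4.06 CPM in LF.

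Genes of fat and sterol synthesis spanned wide ranges within each arm. Lipogenesis genes were higher in 22 of 26 with a median of 0.08, which ran from -0.02 without HFLF 6 to 0.21 without LF 2. Fasn, fatty acid synthase, had 310, 459 and 1352 CPM in HFLF and 670, 644, 583 and 175 CPM in LF (0.18 ± 0.49, from -0.26 without HFLF 6 to 0.33 without LF 1). Scd1, which desaturates stearate, had 2687, 9306 and 18074 CPM in HFLF and 7408, 9672, 13202 and 2371 CPM in LF (0.23 ± 0.51, from -0.075 without LF 6 to 0.56 without LF 3). Both spanned a wide range in each arm, with HFLF 6 the highest and LF 6 the lowest library for Fasn. Srebf1, their regulator, differed by -0.29 ± 0.27 (-0.17 without HFLF 5 and -0.44 without HFLF 1). Cholesterol synthesis genes had a median of -0.04, which ran from -0.23 (without HFLF 6) to 0.18 (without LF 1).

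In bile acid metabolism 21 of 25 genes were higher (median 0.11, from 0.04 without LF 3 to 0.24 without LF 6). Slc27a5, which activates bile acids for conjugation, had 975, 1074 and 1226 CPM in HFLF and 933, 843, 883 and 822 CPM in LF (0.32 ± 0.10), and its groups did not overlap. Abcc3, which exports bile acids to the blood, differed by 0.97 ± 0.43. Cyp7a1, the rate-limiting enzyme of bile acid synthesis, had 10.1, 162 and 653 CPM in HFLF and 34.6, 94.6, 147 and 201 CPM in LF (0.95 ± 0.79, and 0.29 without HFLF 6). Of 21 genes of apolipoprotein B editing and lipoprotein assembly 15 were higher (median 0.08, from 0.05 without HFLF 4 to 0.12 without HFLF 2), among them A1cf. Its editing partner Apobec1 differed by 0.12 ± 0.23 (-0.15 without HFLF 4), and Apob, the edited transcript, by -0.02 ± 0.11. Pltp, the phospholipid transfer protein, had 20.6, 35.4 and 199 CPM in HFLF and 14.1, 28.9, 26.2 and 31.7 CPM in LF (1.35 ± 0.59, and 0.57 without HFLF 6, which had the 199 CPM).

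Glucose genes overlapped between the arms. Gluconeogenesis and glycogen genes were higher in 17 of 23 (median 0.08, from 0.04 without HFLF 6 to 0.15 without LF 3), with Pcx, which makes oxaloacetate from pyruvate, at 761, 841 and 936 CPM in HFLF and 795, 735, 723 and 726 CPM in LF (0.20 ± 0.09). Pck1, of gluconeogenesis, had 2538, 3823 and 5472 CPM in HFLF and 3474, 2262, 5921 and 6305 CPM in LF (-0.15 ± 0.31, from -0.37 without LF 2 to 0.06 without LF 6). G6pc, which frees glucose, had 190, 363 and 763 CPM in HFLF and 206, 270, 217 and 645 CPM in LF (0.31 ± 0.50, from 0.04 without HFLF 5 to 0.84 without LF 6). Glycolysis genes had a median of -0.03, which ran from -0.05 without LF 6 to 0.01 without HFLF 2. Insulin and growth signalling genes were higher in 16 of 24 (median 0.11, and 0.06 without LF 2). Insr, the insulin receptor, had 129, 137 and 156 CPM in HFLF and 118, 109, 134 and 125 CPM in LF (0.20 ± 0.08), where LF 3 lay in the HFLF range. Irs2, which carries its signal, had 20.3, 22.3 and 47.7 CPM in HFLF and 17.05, 22.0, 20.2 and 22.1 CPM in LF (0.52 ± 0.23, and 0.33 without HFLF 4).

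The title of the series names the microRNA let-7, which represses transcripts whose tails pair with its seed, bases 2 to 8 of the mature strand. In the RefSeq table (GRCm38.p6) 9 mature let-7 sequences shared the seed GAGGUAG and 1, let-7j, had GAGGUAU. The following 4 are shown, with the seed in capitals, because they share it while differing further on. Mature let-7b and a copy of let-7c lie on chromosome 15 at 85707325 to 85707346 and 85706616 to 85706637, before Ppara on the same strand.
let-7a: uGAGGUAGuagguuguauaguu
let-7b: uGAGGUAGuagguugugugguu
let-7c: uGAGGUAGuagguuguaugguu
let-7g: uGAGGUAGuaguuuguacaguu
No mature microRNA was measured here. Known let-7 targets had no common direction, with 10 of 28 higher and 18 lower (median -0.05, from -0.11 without LF 1 to 0.04 without LF 6), 2 higher (7.14%) and 1 lower (3.57%) at an unadjusted p under 0.05, beside 2.82% and 2.65% of all genes. The 2 higher members at that threshold were Insr and Irs2, described above, and both overlapped between the arms. Groups did not overlap in 1 member of the list, which was lower, beside 0.519% of all genes. Dicer1, which cuts microRNA precursors and is itself a let-7 target, had 40.2, 43.6 and 50.1 CPM in HFLF and 41.7, 34.2, 42.3 and 40.9 CPM in LF (0.15 ± 0.09, and 0.09 without LF 2). Genes of microRNA processing were higher in 15 of 20 (median 0.08, and 0.02 without HFLF 4), none at an unadjusted p under 0.05.

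The medians of several other groups depended on single libraries. Acute phase genes, secreted in inflammation, were lower in 23 of 30 (median -0.11), but the median was -0.0027 without LF 6 and -0.42 without HFLF 2, the library with the highest list mean (8.50, other HFLF libraries 6.54 to 7.46, LF 7.09 to 8.13). Cell cycle genes were lower in 17 of 24 (median -0.16, from -0.24 without LF 3 to -0.08 without LF 2), with the replication helicase subunits Mcm3 at -0.61 ± 0.19 and Mcm5 at -0.91 ± 0.31 (-0.59 without LF 1). Interferon-induced genes were higher in 25 of 34 (median 0.11, from 0.04 without HFLF 2 to 0.16 without HFLF 5). The circadian genes had a median of 0.06, which ran from -0.07 without LF 2 to 0.16 without LF 6, and HFLF 4 stood apart with a list mean of 4.88, against 5.45 to 5.67 in the other HFLF libraries and 5.20 to 5.65 in LF. Bhlhe40, a repressor in the clock, had 107, 134 and 147 CPM in HFLF and 183, 160, 165 and 144 CPM in LF (-0.30 ± 0.10). Hspb1, a small heat shock protein, had 3.34, 9.46 and 18.4 CPM in HFLF and 30.4, 29.2, 9.37 and 7.55 CPM in LF (-1.01 ± 0.47), where LF 1 and LF 2 were high and LF 3 and LF 6 lay in the HFLF range. Of the 17 measured neuropilin, VEGF and receptor genes 3 were higher (17.6%) and 1 lower (5.88%) at an unadjusted p under 0.05, beside 2.82% and 2.65% of all genes (median -0.09, from -0.14 without HFLF 2 to 0.0047 without LF 1). Besides Nrp2 the higher ones at that threshold were Flt1, a VEGF receptor (0.30 ± 0.13), and Plxna1, a semaphorin receptor (0.29 ± 0.11). Over the whole list 8 members were higher and 9 lower, with fold changes from -0.78 to 0.76. The neuropilin list, too, was chosen with earlier results of these data known, so its shares are descriptions only.

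**Figure D5:**
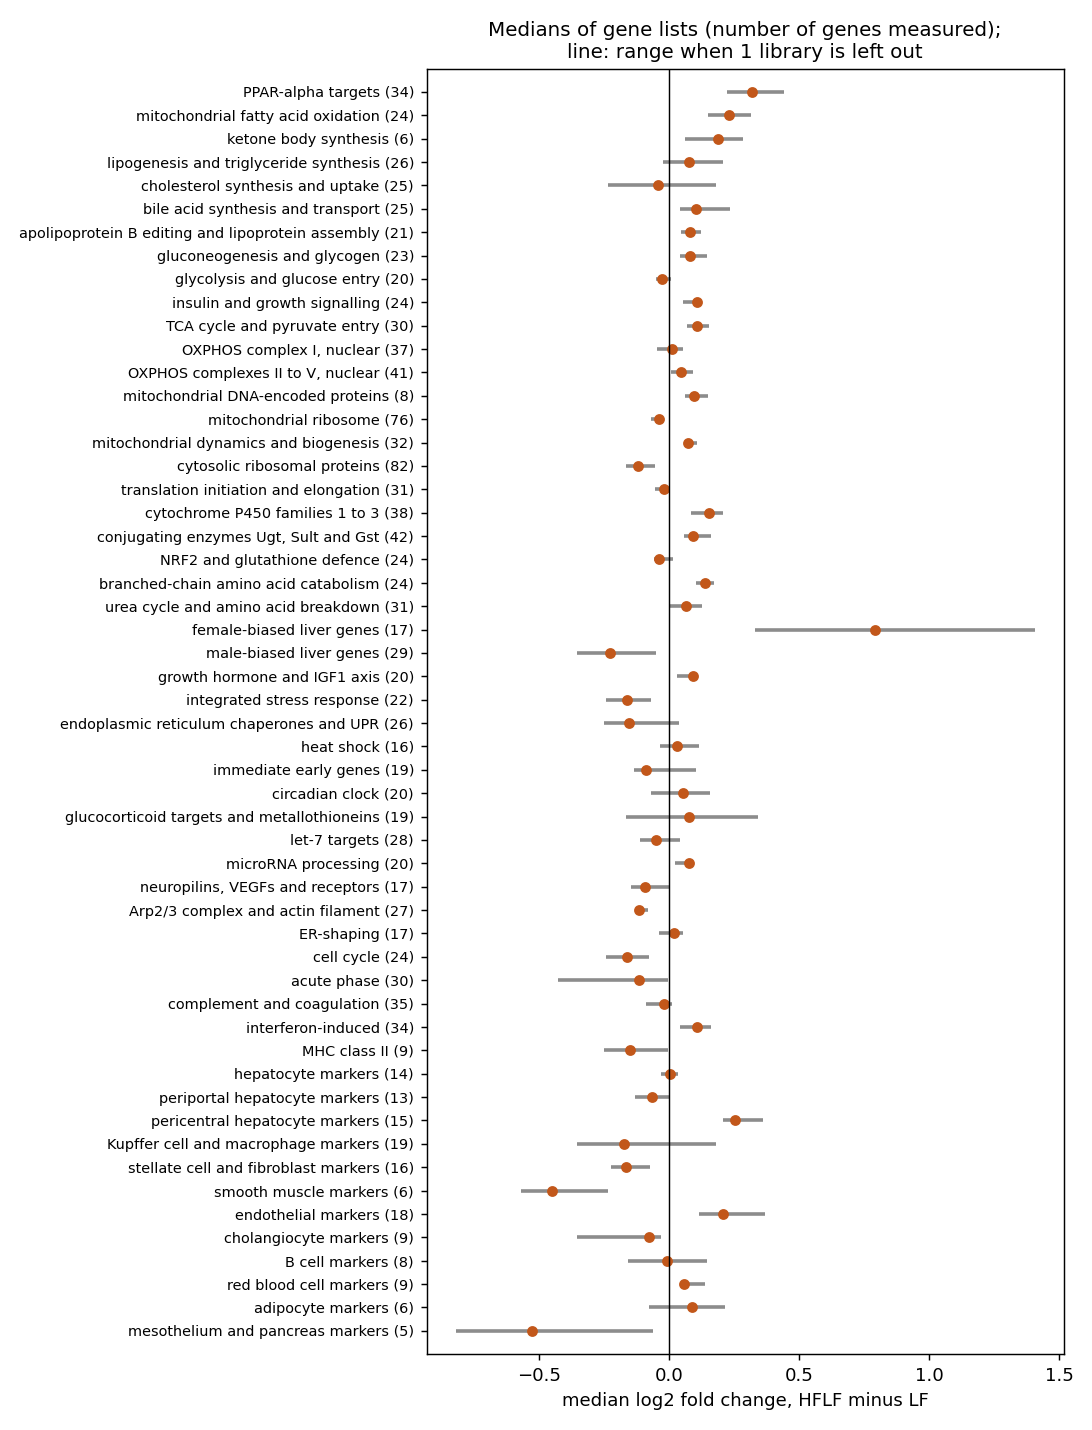
Median log2 fold change (HFLF minus LF, orange points) of each gene list with at least 5 measured genes, and the range of that median when any 1 of the 10 libraries was left out (grey lines). PPAR-alpha targets, fatty acid oxidation and pericentral markers keep positive medians throughout, and Arp2/3 and actin genes keep a negative one, while the line of cholesterol synthesis and that of macrophage markers cross 0.

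For the remaining lists, the lowest and highest median on leaving out 1 library is given after the median. The growth hormone and IGF1 axis had 0.09 (13 of 20 higher, 0.03 to 0.11), red blood cell markers 0.06 (6 of 9, 0.04 to 0.14) and the urea cycle and amino acid breakdown 0.07 (21 of 31, 0.0039 to 0.13), all of which kept their sign. Medians turned sign for NRF2 and glutathione defence (-0.04, 10 of 24 higher, -0.06 to 0.01), heat shock (0.03, 10 of 16, -0.03 to 0.12), ER-shaping genes (0.02, 10 of 17, -0.04 to 0.06) and complement and coagulation (-0.02, 15 of 35, -0.09 to 0.01). Immediate early genes had -0.09 (7 of 19 higher), and 0.10 without LF 6. Glucocorticoid targets and metallothioneins had 0.08 (12 of 19 higher), which ran from -0.16 without HFLF 5 to 0.34 without LF 6. MHC class II had -0.15 (2 of 9 higher), and -0.0040 without LF 3 or -0.25 without LF 1. Cholangiocyte markers had -0.08 (3 of 9 higher), and -0.35 without LF 6. Adipocyte markers had 0.09 (4 of 6 higher), which ran from -0.07 without HFLF 5 to 0.21 without LF 2. Mesothelium and pancreas markers had -0.53 (0 of 5 higher), which ran from -0.82 without LF 6 to -0.06 without LF 3, with summed levels of 19.6 to 41.7 CPM in HFLF and 21.8 to 41.5 CPM in LF.

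The HFLF livers were also set against those of the HF arm (n = 5), whose animals had the same strain, age and own diet. In the same fit 0 of 13677 genes differed at an adjusted p under 0.05 (0.0%), and 255 (1.86%) had an unadjusted p under 0.05, fewer than the 684 expected with no change. Values against LF share the LF libraries and are given side by side only. Nrp2 differed from LF by 0.76 ± 0.14 in HFLF and 0.60 ± 0.15 in HF, Ppara by 0.77 ± 0.20 and 0.51 ± 0.21, A1cf by 0.91 ± 0.20 and 0.52 ± 0.21, and Gstp1 by -0.66 ± 0.18 and -0.86 ± 0.19. Between HFLF and HF directly, these 4 differed by 0.16 ± 0.13, 0.26 ± 0.19, 0.38 ± 0.19 and 0.20 ± 0.17. Further apart were Serpine2 (HFLF minus HF, -0.58 ± 0.13) and Acta2 (-0.59 ± 0.20), neither of which passed over all genes (edgeR adjusted p = 1.00). Medians against LF were 0.32 in HFLF and 0.29 in HF for PPAR-alpha targets, -0.11 and -0.06 for Arp2/3 and actin genes, and -0.16 and 0.02 for the integrated stress response.

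In epididymal white adipose tissue (eWAT, a visceral fat pad) of the same arms (6 HFLF and 4 LF libraries) the same contrast was fitted. The interaction of tissue and arm was tested over the 12735 genes of both tables, of which 0 (0.0%) passed and 744 (5.84%) had an unadjusted p under 0.05. Arm and number recur in the titles of both tissues, so libraries of the same number may come from 1 animal, which no label states and that fit did not use. With arm and number as a block over the 28 libraries that recur (14 numbers, of which 6 HFLF and 3 LF), an alternative chosen after the data were seen, 0 genes passed and 685 (5.38%) had an unadjusted p under 0.05. Nrp2 averaged 66.7 CPM in HFLF and 68.1 CPM in LF eWAT (-0.03 ± 0.10), and its liver minus eWAT difference was 0.79 ± 0.18 (edgeR adjusted p = 0.416), or 0.66 ± 0.19 with the block. Reep5 averaged 513 CPM in HFLF and 457 CPM in LF eWAT, a difference between tissues of -0.74 ± 0.15 (edgeR adjusted p = 0.416). Arpc1b averaged 286 CPM in HFLF and 345 CPM in LF eWAT (-0.27 ± 0.12), with the same sign as in liver and a tissue difference of -0.14 ± 0.14, or -0.02 ± 0.15 with the block. Lpgat1 likewise had 499 CPM in HFLF and 344 CPM in LF eWAT (0.54 ± 0.23). PPAR-alpha targets had a median of 0.05 over the 31 members measured in eWAT, beside 0.32 over the 34 in liver. Hepatocyte markers had a median of -2.38 in eWAT, beside 0.01 in liver. The part of such liver transcripts in the eWAT values and in the differences between tissues was not tested.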

How the data were processed

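Gene expression was measured by RNA sequencing in liver and eWAT. The liver table holds raw counts per gene, deposited by the authors as whole numbers. STAR and GRCm38.p6 are named in the submitters' processing notes, with no versions, while the counting tool is not given in the sources used. Genes of low CPM had been left out before deposit, as the table's name says, by a threshold that no label gives. The liver genes present each had at least 0.5 CPM in 4 or more libraries. The deposited rpkm tables were not used. Symbols were matched by Ensembl ID for 13667 of 13677 genes.

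Counts were fitted with the edgeR 4.0.16 quasi-likelihood test (R 4.3.3, TMM, robust) over all 15 liver libraries, 1 term per arm, so that HF libraries share in the spread. The filter filterByExpr removed 0 genes, and the residual degrees of freedom were 12. The p-values were adjusted by Benjamini-Hochberg over all genes, and the fit was tested on simulated data. Mean log2 CPM of lists used a prior count of 2. Exact permutation tests compared library totals and shares. Alternatives were RLE factors, library totals, DESeq2 1.42.0, limma 3.58.1 voom, a stricter filter, HFLF and LF alone, a replicate block, leaving out each library and, added after the data were seen, the interaction of tissue and arm with arm and number as a block. Named genes were the 15 with the smallest p in each direction with a symbol that is not a model name, up to 4 members of each of 56 lists by p, a fixed set, and members with an outlying library. Cyp2c, Arp2/3 and Gstp relatives, Cyp1a2, Apob, Apobec1 and a few others were named after their values were seen. The members and lists were chosen with earlier results of these data known. A few genes that these rules name are not reported here.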

Additional observations from a re-analysis of the deposited data

Results flagged for a closer look

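Of 348 groups of libraries examined, 28 held a library far from the others by Dixon's test. Chance alone flags about 1 in 20 groups, and values of related genes are not independent. Values are CPM unless a list mean is named, and no explanation was tested.

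HFLF 4 was far from the other HFLF libraries in 4 genes and 1 list. It had 26.4 CPM of Fgf21 (other HFLF libraries up to 5.41), 28.7 CPM of Apobec1 (others up to 15.02), 78.4 CPM of Stat5b (others up to 60.3) and 89.2 CPM of Arpc2 (others at least 107). Its mean log2 CPM of the circadian list was 4.88, where the other HFLF libraries had at least 5.45. HFLF 6 had 1352 CPM of Fasn (others up to 594), 199.0 CPM of Pltp (others up to 64.0) and 216 CPM of Pfn1 (others at least 239). HFLF 2 had 70.0 CPM of Ndufa7 (others at least 74.0).

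LF 1 had 83.5 CPM of Ppara (other LF libraries up to 64.1), 349 CPM of Spp1 (others up to 62.9), 179 CPM of Dnajb11 (others up to 103), 795 CPM of Pcx (others up to 735) and 0.398 CPM of Fmr1nb (others up to 0.063). Its list means were 7.67 for endoplasmic reticulum chaperones (others up to 7.07) and 3.79 for let-7 targets (others at least 3.90).

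LF 2, the shallowest LF library at 9225373 counts (others at least 15242586), had 7.26 CPM of Nupr1 (others up to 1.99), 3.37 CPM of Acta2 (others up to 2.52), 34.2 CPM of Dicer1 (others at least 40.9), 376 CPM of Igf1 (others at least 543) and 4.84 CPM of Mfsd4a (others at least 7.62). Its mean for branched-chain amino acid catabolism was 6.77 (others up to 6.67). The part of its depth in these values was not tested. LF 3 had list means of 5.40 for Arp2/3 and actin genes (others at least 5.52) and 2.72 for adipocyte markers (others at least 3.25). LF 6 had 645 CPM of G6pc (others up to 270), 4206 CPM of Mup20 (others at least 6205) and 137 CPM of Gstt1 (others at least 172).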

How the results depend on the processing

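The count of genes at an adjusted p under 0.05 was 0 in each edgeR and limma setting except the replicate block, which gave 3 (Ces1g, Cyp2c54 and Hspb1), and DESeq2 gave 11. The cause of these differences was not tested. Same-numbered libraries correlated by -0.03 to 0.25 in their deviations and did not all correlate best with their own number, so the numbers were not taken as pairs. The block used 8 libraries and gave 879 genes at an unadjusted p under 0.05. Under the block the median of PPAR-alpha targets was 0.20 (0.32 without it), of the ketone list 0.08 (0.19), of conjugating enzymes 0.19 (0.09), of the integrated stress response -0.30 (-0.16) and of cholangiocyte markers -0.32 (-0.08), and several other medians moved by over 1.5 times with the same sign. List medians of the other sign under the block were 0.23 for cholesterol synthesis, -0.0086 for the growth hormone axis, -0.05 for heat shock, -0.07 for glucocorticoid targets, -0.0031 for ER-shaping genes, 0.03 for complement and coagulation, -0.04 for hepatocyte markers, 0.06 for B cell markers, -0.17 for neutrophil markers and -0.18 for adipocyte markers. With at least 5 CPM in 4 libraries, which tests fewer genes, the median log2 fold change of smooth muscle markers was 0.14, the median log2 fold change of neuropilins, VEGFs and receptors was 0.10 and the median log2 fold change of T and NK cell markers was -0.19. The filter at 5 CPM left out Acta2, Myh11 and Tagln, so its smooth muscle median covers fewer members and is not a like value. With HFLF and LF libraries alone the median log2 fold change of T and NK cell markers was -0.07.

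Leaving out 1 library gave 543 (without LF 1) to 1131 (without LF 6) such genes, of which 266 to 556 were higher and 272 to 575 lower. Genes without overlap then numbered 73 to 225 on the higher side and 80 to 230 on the lower side, and any smaller group makes overlap rarer. With library totals they were 37 and 125, beside 58 and 71.

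Signs turned in these genes when 1 library was left out, as the ranges show. Apob ran from -0.11 to 0.029, Apobec1 from -0.15 to 0.19, Arpc5 from -0.0080 to 0.044, Cyp2c70 from -0.58 to 0.42, Cyp4a14 from -0.031 to 3.18 and Fabp1 from -0.0031 to 0.35. Fasn ran from -0.26 to 0.33, Fgf21 from -0.92 to 1.39, Gstp3 from -0.33 to 0.043, Pck1 from -0.37 to 0.060, Scd1 from -0.075 to 0.56 and Spp1 from -1.60 to 0.21. Under the replicate block Apobec1 was -0.12, Cyp2c70 0.040, Fgf21 -1.11, G6pc -0.19 and Gstp3 0.16, and with library totals Arpc5 was -0.0057. The cause was not tested. In 2011 other combinations of gene and setting the sign held and the gene stayed uncalled. The main fit called 0 genes, so this count does not describe the size of fold changes. Some genes, such as Acadm and Actb, moved by over 1.5 times when 1 library was left out. Values under the floor of 3 counts cannot be told from 0 at this depth.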
